A study of Bos taurus with 12 samples.

Results

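Fatty acid synthase (FASN, ENSBTAG00000015980) and acetyl-CoA carboxylase 1 (ACACA, ENSBTAG00000017567) were followed across the 4 differentiation media. They are 2 of the 3 enzymes of de novo lipogenesis chosen by identifier, among 22372 genes in the table. The third, the desaturase SCD (ENSBTAG00000045728), was not analysed here and has no values below. The symbols came with the choice of identifiers. The RefSeq gene table at hand lists all 3 symbols but pairs 0 of the 3 identifiers with them, so the names could not be checked against it. Both analysed genes passed the filter on low values, which kept 9267 genes.

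De novo lipogenesis builds long-chain fatty acids from acetyl-CoA. ACACA makes malonyl-CoA, the committed step, FASN assembles palmitate from acetyl-CoA and malonyl-CoA, and SCD then puts the first double bond into the saturated chain. Insulin is a classical inducer of the pathway, and PPARγ, the receptor that rosiglitazone activates, is the central transcription factor of fat cell formation.

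The cells were bovine stromal vascular cells (SVC), labelled MSC, isolated from subcutaneous fat of 3 donors. They were differentiated for 12 days and 1 library was made per donor and medium, which gave 12 libraries. The full medium was rDM, a serum-free base with progesterone (17 nM), hydrocortisone (25 nM), rosiglitazone (5 μM) and insulin (10 μg/mL). Rosiglitazone was absent from rDM 0% Ros, insulin from rDM 0% Ins and both steroids from rDM 0% HC/PR. The labels name replicates A, B and C and number 3 batches, 1 for each letter, and do not name donors. The letters are read here as the 3 donors of the study's methods, so each within-donor value below is also a within-batch value. These are primary cells of unsorted stroma, and the cell label was not checked against marker genes here. Levels are CPM, counts of a gene scaled to 1000000 counts of its library, after the authors' batch correction and not per length, so the levels of the 2 genes are not compared with each other. The counts behind them were recovered as whole numbers, from 295288 to 1107442 per library. They are counts as adjusted by the batch correction, not reads as sequenced, and at low levels the adjustment can change a count and its interval. Intervals of single values are exact Clopper-Pearson 95% intervals of these adjusted counts. They cover the error of counting as if each count were a separate molecule, and neither the spread between libraries nor the error of the adjustment. Reads copied by PCR are not separate molecules, so the intervals can be too narrow even for counting.

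FASN had its highest mean in rDM, where it stood at 383.8 CPM in donor A, 725.4 CPM in donor B and 634.2 CPM in donor C (mean 581.1 ± 177 CPM, SD, n = 3). It rested there on 425, 480 and 264 adjusted counts.

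Without rosiglitazone, FASN was at 51.2 CPM in donor A, 79.6 CPM in donor B and 89.1 CPM in donor C (73.3 ± 19.7 CPM, SD, n = 3). All 3 libraries were far below every rDM library and the groups did not overlap, as held in this direction for 11.4% of the genes tested. The level was 7.50-fold, 9.12-fold and 7.11-fold lower than in rDM of the same donor in donors A, B and C, a fall of similar size in each. FASN fell by 2.96 on the log2(CPM + 1) scale (standard error 0.40, adjusted p = 0.000481 from limma), a 7.77-fold lower level with a 95% interval of 4.26 to 14.2. In donor B the rDM library and the library without rosiglitazone were in different sequencing pools. With the library pool added to the fit, the log2 fold change was -2.91 (adjusted p = 0.00359 from limma). Of all genes tested, 5.07% changed in this comparison, 3.27% downwards, and 123 genes (1.33%) had a larger fall than FASN. In bulk libraries such as these, fewer fat cells and less FASN mRNA per fat cell cannot be told apart.

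Without insulin, FASN was at 174.7 CPM in donor A, 75.9 CPM in donor B and 94.8 CPM in donor C (115.1 ± 52.4 CPM, SD, n = 3). Again no library reached the lowest rDM library, as held for 8.03% of the genes tested. The level was 2.20-fold lower than in rDM in donor A, 9.55-fold in donor B and 6.69-fold in donor C, so that donor A kept a larger part of its FASN than the others. FASN fell by 2.37 on the same scale (standard error 0.40, adjusted p = 0.0111 from limma), a 5.16-fold lower level with a 95% interval of 2.83 to 9.41. In this comparison 1.51% of the genes tested changed, 0.852% downwards, and 92 genes (0.993%) had a larger fall.

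The call without insulin depended on single libraries, and that without rosiglitazone did not. Leaving out 1 library, the adjusted p from limma rose to 0.0952 and 0.0872 without donors B and C of rDM, and to 0.0652 and 0.0873 without donors B and C of rDM 0% Ins. Leaving out a whole donor, it was 0.124 without donor B and 0.258 without donor C. The call was also lost in limma with no variance trend (adjusted p = 0.166). The log2 fold change stayed between -2.98 and -1.93 across the 9 fits without a donor or library. Without rosiglitazone, the 9 such fits kept the adjusted p at or below 0.0208. The recovered counts gave the same calls in edgeR's quasi-likelihood test with the donor as a block, with an adjusted p of 0.00628 without insulin, where 156 genes were called, and of 0.000496 without rosiglitazone, where 492 were called.

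**Figure D1:**
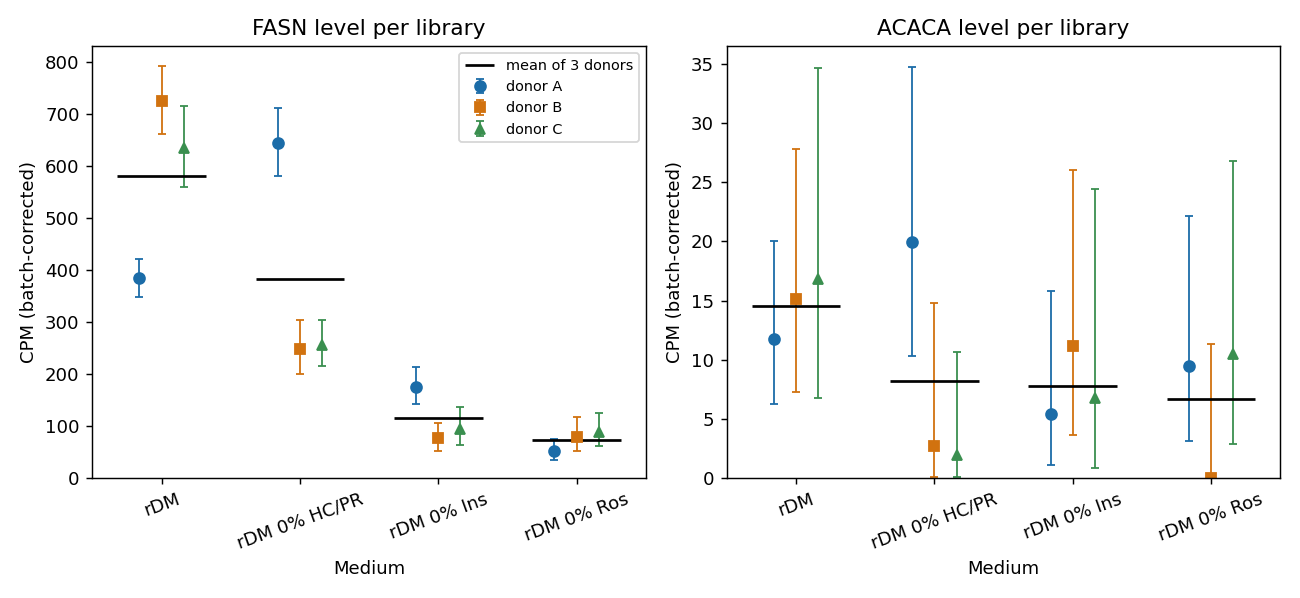
Level of FASN (left) and ACACA (right) in CPM, axes starting at 0, for each medium. Points are single libraries (circle donor A, square donor B, triangle donor C) with exact 95% counting intervals, and black lines are means of 3 donors. FASN lies between 383.8 and 725.4 CPM in rDM and between 247.4 and 644.3 CPM without HC/PR. It lies between 75.9 and 174.7 CPM without insulin and between 51.2 and 89.1 CPM without rosiglitazone. The intervals of ACACA are wide and overlap in most media.

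The question of whether insulin or rosiglitazone mattered more for FASN was put to both media directly. FASN was 1.51-fold higher without insulin than without rosiglitazone, a log2 difference of 0.59 (standard error 0.40), which did not pass the test (adjusted p = 0.597 from limma, 2.07% of genes called). The 95% interval ran from 1.21-fold lower to 2.75-fold higher. The estimate rested on donor A and was 0.011 on the log2 scale without it. FASN was 3.41-fold higher without insulin than without rosiglitazone in donor A, but 0.954-fold in donor B and 1.06-fold in donor C. The libraries compared in donor B were in different sequencing pools. Both falls are measured against the same rDM libraries, so they are not independent of each other.

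Without HC/PR, FASN moved in different directions in different donors. It was at 644.3 CPM in donor A, 247.4 CPM in donor B and 256.1 CPM in donor C (382.6 ± 227 CPM, SD, n = 3). Donor A was above its own rDM library, at 168% of it, whereas donors B and C were at 34.1% and 40.4%. The groups overlapped, and the log2 fold change of -0.70 (standard error 0.40, 95% interval -1.57 to 0.16) did not pass the test (adjusted p = 0.977 from limma, 0.0216% of genes called). It was -1.43 without donor A and -0.28 without donor B, the ends of its range in fits without a donor or library. Of the 9267 genes tested, 1197 (12.9%) were likewise higher in donor A and lower in donors B and C, and 290 (3.13%) over 1.5-fold higher in donor A and over 1.5-fold lower in donors B and C, a pattern looked for after the values of FASN were seen. In donor B the rDM library was in one sequencing pool and the library without HC/PR in the other, while in donors A and C both were in the same pool. Within 1 pool, FASN was higher without HC/PR in donor A and lower in donor C. The cause of the difference between donors was not tested.

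FASN without HC/PR was 4.77-fold higher than without rosiglitazone (log2 fold change 2.25, standard error 0.40, adjusted p = 0.00697 from limma, 2.55% of genes called), and higher in each donor, by 12.6-fold, 3.11-fold and 2.87-fold in donors A, B and C. This call was lost without donor C (adjusted p = 0.0711) and without donor A of rDM 0% Ros (adjusted p = 0.0611), with only the 6 libraries compared (adjusted p = 0.0754) and with no variance trend (adjusted p = 0.117, all from limma). Against rDM 0% Ins it was 3.17-fold higher (log2 fold change 1.66, standard error 0.40), which missed the threshold (adjusted p = 0.0702 from limma, 1.12% of genes called). The direction was the same in each donor there, with 3.69-fold, 3.26-fold and 2.70-fold higher levels, and the groups did not overlap, as held in this direction for 6.58% of the genes tested. It passed in 8 of 16 alternative fits, among them limma with no donor block (adjusted p = 0.0362). With the library pool added it did not pass (adjusted p = 0.195 from limma), and the libraries compared in donor B were in different pools. The call was gained in 2 of 9 left-out fits. These were the fit without donor A (adjusted p = 0.0380) and that without only its library without insulin (adjusted p = 0.0410, both from limma).

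By their means, FASN levels were highest in rDM, then without HC/PR, then without insulin, and lowest without rosiglitazone. No pair of neighbours in that order passed the test, while rDM differed from rDM 0% Ins and from rDM 0% Ros, and rDM 0% HC/PR differed from rDM 0% Ros.

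**Figure D2:**
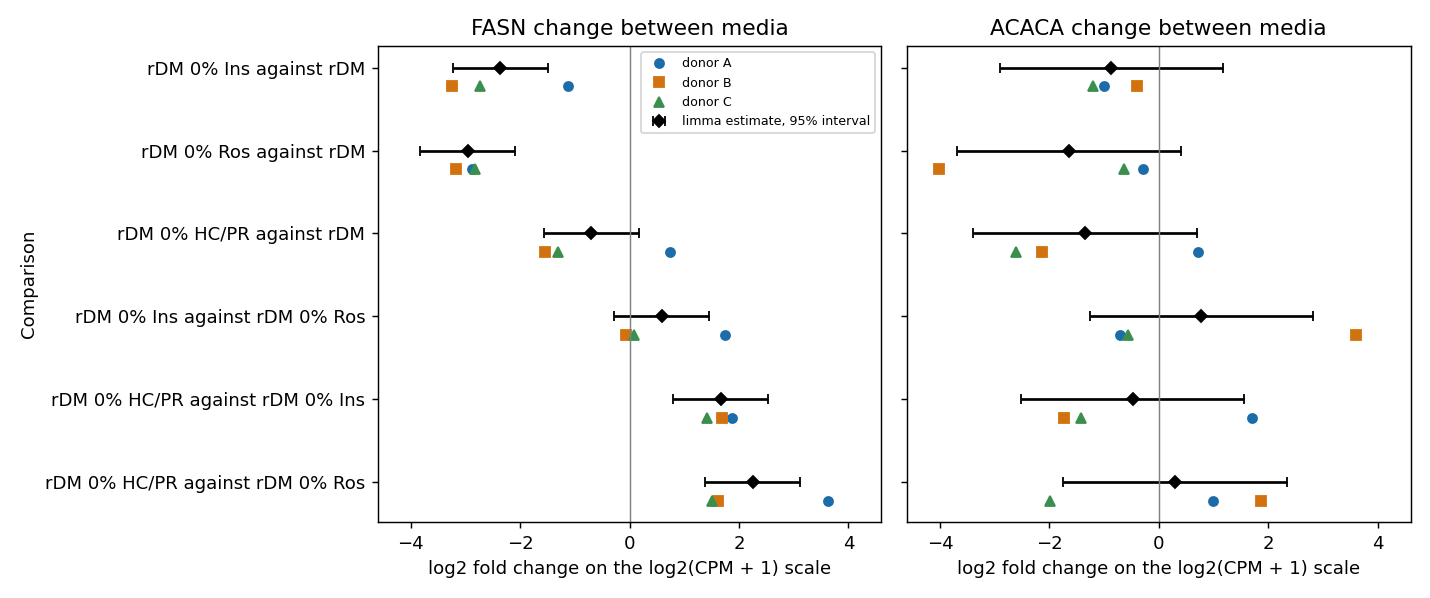
Log2 fold change of FASN (left) and ACACA (right) for the 6 comparisons of media. Diamonds are limma estimates with 95% intervals, and coloured points are the changes within donors A, B and C. For FASN without rosiglitazone the 3 donors lie between -3.17 and -2.82, without insulin between -3.24 and -1.13, and without HC/PR on both sides of 0. Every interval of ACACA includes 0.

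ACACA, the enzyme upstream of FASN, was scarce in these libraries, with 0 to 13 adjusted counts each. In rDM it was at 11.7 CPM in donor A, 15.1 CPM in donor B and 16.8 CPM in donor C (14.6 ± 2.58 CPM, SD, n = 3), from 13, 10 and 7 counts. The counting interval of donor C alone ran from 6.76 to 34.6 CPM, so the close agreement of the 3 values is narrower than their counting error.

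Without insulin, ACACA was at 5.40, 11.2 and 6.77 CPM in donors A, B and C (7.78 ± 3.01 CPM, SD, n = 3), from 3, 5 and 2 counts. Each library was below the lowest rDM library, as held for 8.03% of the genes tested, but 2 of the 3 were at or under the level of 3 counts. The log2 fold change was -0.86 (standard error 0.95, 95% interval -2.91 to 1.18) and did not pass the test (adjusted p = 0.765 from limma). It ranged from -1.62 without donor B of rDM 0% Ins to -0.23 without donor A of that medium.

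Without rosiglitazone, ACACA was at 9.48 CPM in donor A, at 0 in donor B and at 10.5 CPM in donor C (6.66 ± 5.79 CPM, SD, n = 3), from 5, 0 and 4 counts. At the depth of the library of donor B, 3 counts correspond to 9.18 CPM. The exact interval of its 0 counts reaches 11.3 CPM, above the values of both other donors. All 3 values were below every rDM value, as held for 11.4% of the genes tested, but 1 of them was 0 counts. The log2 fold change of -1.64 (standard error 0.95, 95% interval -3.68 to 0.40) did not pass the test (adjusted p = 0.418 from limma), and it was -0.51 without this library of donor B. It ranged from -2.41 to -0.46 in fits without a donor or library, and from -2.74 with a pseudocount of 0.1 to -0.63 with a pseudocount of 10. It was -0.74 with the library pool added. In donor B the rDM library and the library without rosiglitazone were in different pools.

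Without HC/PR, ACACA was at 19.9 CPM in donor A (12 counts), its highest level in any library, and at 2.66 and 1.91 CPM in donors B and C, with 1 count each. It was thus above its own rDM library in donor A and below it in donors B and C, as were 12.9% of the genes tested. The values of donors B and C lie under the level that 3 counts correspond to, 7.98 and 5.73 CPM. The interval of donor A (10.3 to 34.8 CPM) overlapped those of donor B (0.0674 to 14.8 CPM) and donor C (0.0484 to 10.6 CPM). On the log2 scale the change of -1.35, with a standard error of 0.95 and a 95% interval of -3.39 to 0.70, did not pass the test (adjusted p = 0.998 from limma). It was -0.44 with the library pool added, and it ranged from -2.38 to -0.60 in fits without a donor or library.

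Summed over donors, ACACA had 30 counts in rDM, against 9 in rDM 0% Ros, 10 in rDM 0% Ins and 14 in rDM 0% HC/PR. As CPM of the summed libraries these were 13.7 (exact Poisson 95% interval 9.26 to 19.6), 7.28 (3.33 to 13.8), 7.70 (3.69 to 14.2) and 9.32 (5.10 to 15.6). The summed level over 3 donors was lower in each deprived medium than in rDM, and the intervals of all 4 overlapped. These intervals treat the donors as 1 library in which deeper libraries weigh more. They leave out the spread between donors. Of the 14 counts without HC/PR, 12 came from donor A, so the sums were also taken without donor A, a choice made after the values were seen. Donors B and C alone gave 15.8 CPM (9.19 to 25.3) in rDM, 5.65 CPM (1.54 to 14.5) in rDM 0% Ros, 9.42 CPM (3.79 to 19.4) in rDM 0% Ins and 2.22 CPM (0.269 to 8.03) in rDM 0% HC/PR. There the interval of rDM 0% HC/PR lay below that of rDM, with counting error alone considered, and the other intervals overlapped that of rDM. Donor A was left out for its high count, so this gap restates the values that prompted the choice. No conclusion is drawn from it. Without donor A, the log2 fold change from limma was -2.38 and did not pass the test (adjusted p = 0.775). Between the deprived media, the log2 differences of ACACA were 0.78 (rDM 0% Ins against rDM 0% Ros), -0.48 (rDM 0% HC/PR against rDM 0% Ins) and 0.30 (rDM 0% HC/PR against rDM 0% Ros). None passed the test (adjusted p from limma of 0.815, 0.897 and 0.942). Their signs were reversed in 4, 8 and 4 of the other fits. With a standard error of 0.95, an ACACA fall as large as that of FASN without insulin lies within the 95% interval, so a smaller response of ACACA than of FASN was not shown. The RefSeq table lists 14 transcripts of ACACA and 1 of FASN. The gene table sums over transcripts, so ACACA isoforms were not told apart.

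**Figure D3:**
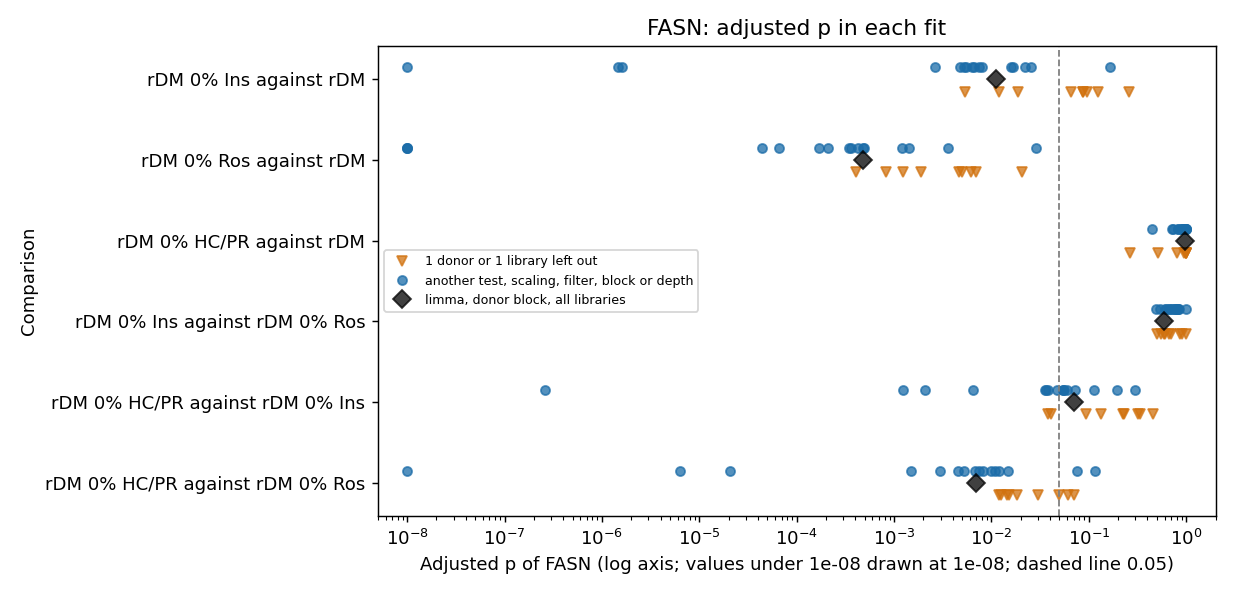
Adjusted p of FASN (log axis) in each fit of the 6 comparisons. Diamonds are limma with all libraries, circles other tests, scalings, filters, blocks or depths, and triangles fits without 1 donor or 1 library, with the dashed line at 0.05. All points for rDM 0% Ros against rDM lie left of the line, those for rDM 0% Ins against rDM fall on both sides, and those for rDM 0% HC/PR against rDM all lie right of it. The 5 values under 1e-08 are drawn at that limit.

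FASN and ACACA varied together only loosely over the 12 libraries, with a Pearson correlation of 0.41 on log2(CPM + 1), and 1217 other genes (13.1%) had a higher correlation with FASN. The libraries share donors and media, and ACACA rests on few counts, so this is a description. By the highest mean correlation with both genes among 4131 genes with a mean of at least 20 CPM, the most similar genes were ENSBTAG00000014724 and ENSBTAG00000011059 (mean Pearson correlation 0.75 each, 12 libraries), whose identifiers were not paired with names here. With a pseudocount of 0.1 in place of 1, 0 of these 2 genes were chosen. ENSBTAG00000011059 was chosen for its likeness over all 12 libraries, those without HC/PR included, so its pattern across donors there is part of the choice. Without HC/PR it was at 129.5 CPM in donor A against 70.4 CPM in the rDM library of that donor, at 55.9 against 102.8 CPM in donor B and at 32.5 against 144.1 CPM in donor C. Its mean was 105.8 ± 36.9 CPM in rDM, 58.3 ± 8.31 CPM without insulin and 23.1 ± 16.4 CPM without rosiglitazone (SD, n = 3 each). Against rDM it passed without rosiglitazone (log2 fold change -2.29, adjusted p = 0.0180 from limma). It did not pass without insulin (-0.80, adjusted p = 0.583) or without HC/PR (-0.70, adjusted p = 0.998, both from limma). The choice by likeness to FASN makes these values a description. The means of ENSBTAG00000014724 spanned a narrower range, from 275.8 ± 26.2 CPM (SD, n = 3) in rDM to 186.3 ± 24.1 CPM (SD, n = 3) without rosiglitazone. That log2 fold change of -0.57 did not pass the test (adjusted p = 0.158 from limma). In the RefSeq annotation (assembly ARS-UCD 2.0) the protein-coding neighbours of FASN are CCDC57 and DUS1L, and AATF lies beside ACACA. The reads were mapped to ARS-UCD 1.2, so no coordinates are given.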

How the data were processed

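The libraries were PCR-amplified cDNA read as long Nanopore reads. The authors basecalled them with Guppy, mapped them with Minimap2 to the bovine transcriptome (ARS-UCD 1.2) and quantified them with Salmon. The authors deposited estimated counts per transcript for each library, used here only for depth and for the check of pairing, and 1 table of CPM per gene, made with tximport and corrected for extraction batch with ComBat-seq. Such a correction draws the libraries of different donors together before any test, and p-values cannot account for it. Of the CPM values, 100% were whole multiples of 1 step per library (within 0.01 count), so whole counts were recovered, which are batch-adjusted counts and not sequenced reads. They made up 94.7% to 98.3% of the estimated counts (302754 to 1153853 per library). The level of 3 counts was 2.71 to 10.2 CPM. Columns without a sample numbered 0.

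Genes that reached 5 CPM in 3 libraries or more were tested with limma 3.58.1 (R 4.3.3) on log2(CPM + 1), with a variance trend (chosen after the files were seen, from a run on simulated data), all 12 libraries and the donor as a block, with Benjamini-Hochberg adjustment over all genes within each comparison and a threshold of 0.05. Replicate letters in the labels each mark 1 batch, read here as 1 donor, and libraries of the same letter deviated together in the uncorrected transcripts (correlations of 0.194 to 0.593 over 18 pairs), but not in the batch-corrected genes that were tested (-0.345 to 0.0411). The block was kept because the labels give each letter a batch of its own. Alternatives used edgeR 4.0.16 and DESeq2 1.42.0 on the recovered counts, other scalings, filters, pseudocounts, depth, blocks and left-out libraries. The limma, edgeR and DESeq2 fits were also run on simulated data, for 1 comparison. The members and lists were chosen with earlier results of these data known. The named genes were the members and the 2 genes with the highest mean correlation with them. Other lipogenesis genes and marker genes were not analysed here, since identifiers were not paired with names, and SCD was not analysed here. An exact sign test on 3 donors cannot go below p = 0.25, so none was run.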

Additional observations from a re-analysis of the deposited data

How the results depend on the processing

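The fall of FASN without rosiglitazone passed the threshold in all 16 alternative fits (log2 fold change -3.17 to -2.81) and in all 9 fits without 1 donor or library (-3.42 to -2.55). Its fall without insulin passed in 15 of 16, the exception being limma with no variance trend (-2.37, adjusted p = 0.166), and in 3 of 9 left-out fits (-2.98 to -1.93). The fit with no trend was tried after seeing the data, and the trend of the main fit was also chosen after the files were seen. For rDM 0% Ins against rDM, 2 genes were called with no trend and 140 in the main fit. FASN passed in 0 of 16 and 0 of 9 for rDM 0% HC/PR against rDM and for rDM 0% Ins against rDM 0% Ros. FASN in rDM 0% HC/PR against rDM 0% Ros was lost in limma with no variance trend (2.25, adjusted p = 0.117) and with only the 6 libraries compared (2.25, adjusted p = 0.0754), and left-out fits gave 1.57 to 2.63. Against rDM 0% Ins, FASN passed with no replicate block (1.66, adjusted p = 0.0362), with no filter on low values (1.66, adjusted p = 0.0359), with only the 6 libraries compared (1.66, adjusted p = 0.00652), in edgeR with no replicate block (1.86, adjusted p = 0.0378), with no filter on low counts (1.85, adjusted p = 2.61e-07) or with DESeq2 size factors (1.87, adjusted p = 0.0474), and in DESeq2 with and with no replicate block (1.87 each, adjusted p = 0.0021 and 0.00124). Left-out fits gave 1.16 to 2.03. The replicate block changed no other call. The cause of these differences was not tested.

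ACACA passed in no fit that gave it an adjusted p, and its changes between deprived media had no stable sign. For rDM 0% HC/PR against rDM 0% Ins it was 0.18 in edgeR, 0.38 with no replicate block, 0.17 with no filter and 0.19 with DESeq2 size factors, 0.42 in limma with the library pool added, and -1.57 to 0.28 in left-out fits. For rDM 0% Ins against rDM 0% Ros it was -0.0057 in edgeR with no replicate block and -0.13 with the library pool, and -0.64 to 1.55 in left-out fits. For rDM 0% HC/PR against rDM 0% Ros, left-out fits gave -0.83 to 1.43. A filter of at least 20 CPM left ACACA out, and DESeq2 gave it an adjusted p in 1 of 6 comparisons each with and without the block.

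The genes called numbered 140 without insulin (296 with no replicate block, 2 to 409 in alternatives, 10 to 159 in left-out fits), 470 without rosiglitazone (742, 210 to 805, 155 to 387) and 2 without HC/PR (3, 1 to 82, 1 to 4). TMM scaling moved the median change of all genes without insulin from 0.19 to -0.02 and the share of calls that were lower from 56.4% to 74.7%, with FASN at -2.60.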
